A study of Mus musculus with 29 samples.

Results

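Mettl7a1 and Mettl7b, a pair of mouse genes for alkyl thiol methyltransferases, were followed in the livers of 29 male C57BL/6 mice with 1 RNA library per mouse. They are 2 of the 12992 genes in the count table and were found by their gene symbols. Mettl7b was chosen by its measured difference between Chow-fed Maf1-/- and Ctrl livers in an earlier analysis of these counts, and Mettl7a1, its relative, was selected with those results known. The mice fell into 6 groups: 5 Chow-fed Maf1-/- mice, which lack Maf1 in all cells, against 7 Ctrl mice; 4 HF-fed Maf1Hep-/- mice against 5 HF-fed Ctrl mice; and 4 Chow-fed Maf1Hep-/- mice against 4 Chow-fed Ctrl mice. Maf1 encodes a repressor of RNA polymerase III. Maf1Hep-/- mice were homozygous for a floxed Maf1 allele and hemizygous for Alb-Cre, which drives Cre from the Albumin promoter, and the Ctrl mice of both hepatocyte-specific cohorts carried the floxed allele without Cre. In these cohorts other liver cells keep Maf1. All mice were 13 to 14 weeks old, fasted overnight and refed for 4 hours. The HF diet, with 60% of calories from lard, was given from 4 to 5 weeks of age.

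METTL7A and METTL7B, named TMT1A and TMT1B in humans, use S-adenosylmethionine to methylate thiol groups. The human enzymes act on hydrogen sulfide and on thiol-containing drugs and sit in the endoplasmic reticulum membrane. Both proteins have also been found on lipid droplets, to which they move from the endoplasmic reticulum. Liver is among the tissues rich in their mRNAs. They belong to the same broad class of S-adenosylmethionine-dependent enzymes as the other Mettl proteins, most of which methylate RNA or protein.

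On mm10, Mettl7b (ENSMUSG00000025347) occupies chromosome 10 from 128958274 to 128960988 on the minus strand. Mettl7a1 (ENSMUSG00000054619) occupies chromosome 15 from 100304140 to 100328662 on the plus strand, with the relatives Mettl7a3, Mettl7a2 and Methig1 next to it. Each member has a coding sequence of 732 bases, and these were 68.7% identical over 721 aligned bases. Mettl7a1 was far closer to its neighbours, with 94.7% identity to Mettl7a2 and 94.3% to Mettl7a3 over 732 bases. Neither neighbour, nor Methig1, is a row of the table used here. The longest coding run that Mettl7a1 shares exactly with Mettl7a2 is 164 bases long and lies in a single coding exon at chr15:100305156-100305319. It is printed here with the aligned stretches of the relatives, because reads from such a run cannot be assigned to either gene alone. Each stretch is GENCODE transcript sequence, 5′ to 3′, and capitals mark bases that differ from Mettl7a1.
Mettl7a1: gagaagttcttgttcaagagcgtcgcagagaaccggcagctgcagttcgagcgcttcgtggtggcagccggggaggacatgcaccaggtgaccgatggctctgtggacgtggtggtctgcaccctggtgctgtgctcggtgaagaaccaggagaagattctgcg
Mettl7a2: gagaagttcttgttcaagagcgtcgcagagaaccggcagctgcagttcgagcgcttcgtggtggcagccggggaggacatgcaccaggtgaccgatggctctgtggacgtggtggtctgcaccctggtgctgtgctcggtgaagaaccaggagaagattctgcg
Mettl7a3: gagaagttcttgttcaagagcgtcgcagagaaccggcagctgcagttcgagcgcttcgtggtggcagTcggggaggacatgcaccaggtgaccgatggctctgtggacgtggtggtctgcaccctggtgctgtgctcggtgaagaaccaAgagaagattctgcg
Mettl7b: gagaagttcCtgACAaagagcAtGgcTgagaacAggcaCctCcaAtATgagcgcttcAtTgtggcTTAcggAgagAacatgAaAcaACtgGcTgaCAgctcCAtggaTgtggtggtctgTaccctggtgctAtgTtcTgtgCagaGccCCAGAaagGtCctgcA
Over these bases Mettl7a2, at chr15:100353519-100353682 on the plus strand, had 0 mismatches to Mettl7a1. Mettl7a3, at chr15:100335239-100335402 on the plus strand, had 2, and Mettl7b, at chr10:128960466-128960629 on the minus strand, had 45. Of the 2848 distinct 100-base windows in Mettl7a1 transcripts, 137 (4.81%) also occurred in a transcript of another gene, in each case of Mettl7a2, with 65 of them also in Methig1 and 8 in Mettl7a3. Of the 1131 windows of Mettl7b, 0 were shared. Windows of 150 bases, the number of cycles of the HF libraries, were not examined, so these shares may not hold for the HF cohort. The estimated counts of Mettl7a1 were fractional in 17 of the 20 chow libraries and whole in all 9 HF libraries, while those of Mettl7b were whole in every library. The totals over all genes were likewise whole in all 9 HF libraries and fractional in the chow libraries. Whole counts on HF are therefore not particular to Mettl7a1, and why the form of the counts differed was not tested. Given the shared windows, the level of Mettl7a1 may include reads of its neighbours, and how they were shared out was not tested.

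Library totals were 43564164 to 75682301 in the chow cohorts and 25544816 to 32319706 in the HF cohort, which was sequenced differently from the others, on 2 lanes at 150 cycles. Maf1 mRNA, the check of the labels, was 0.0771 to 1.09 CPM in Maf1-/- livers against 4.93 to 10.8 CPM in their Ctrl livers. It was 1.38 to 1.81 CPM in HF-fed Maf1Hep-/- livers against 12.6 to 18.9 CPM in HF-fed Ctrl livers, and 2.83 to 4.21 CPM in Chow-fed Maf1Hep-/- livers against 14.9 to 18.8 CPM in Chow-fed Ctrl livers. Hepatocyte markers were abundant in every group, with summed levels of 70346 to 122339 CPM over the 9 markers measured, so the label of liver was borne out. In the whole-body cohort, 1 Maf1-/- mouse and 1 Ctrl mouse, number 2 of each, lay on the opposite genotype's side of the first principal component.

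Both members were well measured, with the lowest count at 3511 for Mettl7a1 and 11641 for Mettl7b. Levels are CPM (a gene's counts relative to the total of its library), scaled by trimmed mean of M-values (TMM) factors over the 29 libraries. Over the 29 livers Mettl7b averaged 464 CPM and ranked 250 of 12992 genes, and Mettl7a1 averaged 138 CPM and ranked 874. Per kilobase of exon, the group means of Mettl7b were 271 to 450 CPM and those of Mettl7a1 were 45.3 to 59.5 CPM. The length is the union of annotated exons, 2595 bases over 8 transcripts for Mettl7a1 and 1230 bases of 1 transcript for Mettl7b. A union over several transcripts can lower the level per kilobase of Mettl7a1. Mettl7b varied 2.11-fold between the lowest and the highest mouse, and Mettl7a1 varied 1.83-fold. In the order of group means, Mettl7b was highest in Ctrl livers of the whole-body cohort, followed by Chow-fed Maf1Hep-/-, their Ctrl, HF-fed Ctrl, HF-fed Maf1Hep-/- and Maf1-/- livers. The order for Mettl7a1 was Ctrl of the whole-body cohort, Chow-fed Ctrl of Maf1Hep-/-, Chow-fed Maf1Hep-/-, Maf1-/-, HF-fed Maf1Hep-/- and HF-fed Ctrl livers. Neighbours in both orders overlapped in their ranges. In bulk liver, fewer cells of a type and less RNA per cell cannot be told apart.

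**Figure D1:**
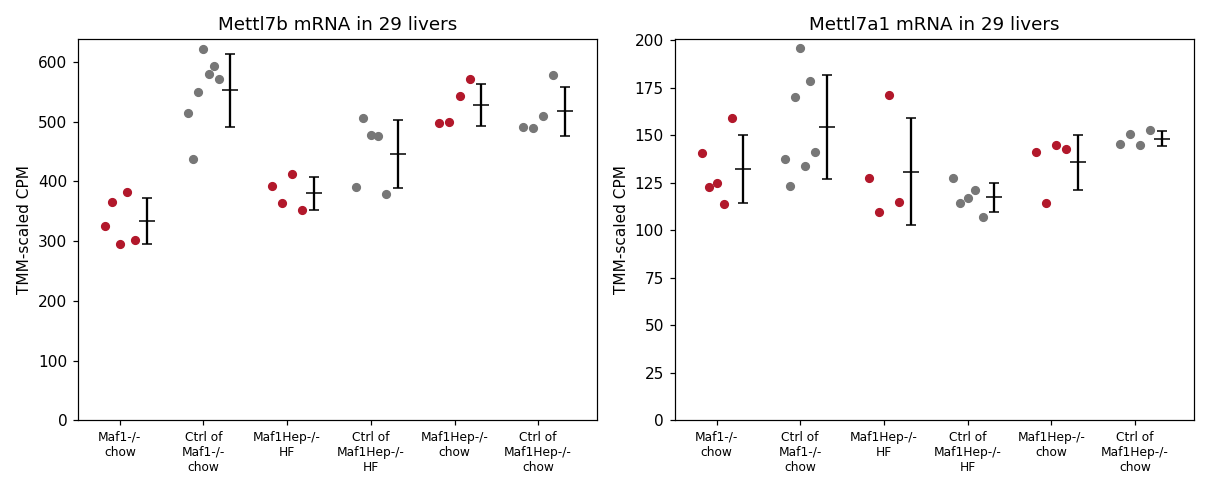
TMM-scaled CPM (y axis) of Mettl7b (left) and Mettl7a1 (right) in each of 29 livers by group, with red points for Maf1-lacking mice, grey points for Ctrl mice, and bars for the mean and SD. The 5 Maf1-/- livers lie between 295 and 382 CPM for Mettl7b, all below the 437 to 622 CPM of their 7 Ctrl livers, while the Mettl7a1 points of these groups overlap.

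Mettl7b was lower in whole-body Maf1-/- livers than in Ctrl livers, and this is the difference by which it was chosen, so it is described without a test. The Maf1-/- mice had 325, 366, 295, 382 and 301 CPM, against a lowest value of 437, a median of 572 and a highest value of 622 CPM in the 7 Ctrl mice. The groups did not overlap. The means were 334 ± 38.6 CPM in Maf1-/- livers and 553 ± 61.1 CPM in Ctrl livers (SD, n = 5 and 7), a fold of 0.604, and the fitted log2(FC) was −0.70 (SE 0.11). Without mouse 2 of both groups, log2(FC) was −0.76. The rule that picked Mettl7b was an adjusted p-value under 0.1 with an absolute log2(FC) above 0.5. In the fit without RUVr factors it was met by 3 genes, or 0.0234% of the 12796 tested, and nothing is read from that share here. The paper removed unwanted variation with RUVr factors and reported far more mRNAs past stricter cutoffs in this cohort. Mettl7a1 stood outside that rule.

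Mettl7a1 differed less between the same groups. It had 141, 123, 125, 114 and 159 CPM in Maf1-/- livers, against a lowest value of 123, a median of 141 and a highest value of 196 CPM in Ctrl livers. Both ranges overlapped widely, with 2 Maf1-/- mice below every Ctrl mouse. The means were 132 ± 17.8 CPM in Maf1-/- livers and 154 ± 27.2 CPM in Ctrl livers (SD, n = 5 and 7), and log2(FC) was −0.19 (SE 0.13). The median log2(FC) was −0.81 over 5 erythroid markers, all lower in Maf1-/- livers, and 0.26 over 9 stellate cell and fibroblast markers, 6 of them higher. Summed stellate and fibroblast markers ranged from 441 to 644 CPM in Maf1-/- livers and from 368 to 516 CPM in Ctrl livers. Their part in the lower Mettl7b level was not tested.

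Loss of Maf1 from hepatocytes gave no call for either member on chow. Mettl7b had 498, 499, 543 and 571 CPM in Chow-fed Maf1Hep-/- livers, against 491, 490, 509 and 578 CPM in Ctrl livers, and the groups overlapped fully. Its log2(FC) was 0.027 (SE 0.090, edgeR adjusted p = 0.997), and it was −0.0074 without Maf1Hep-/- mouse 4. Mettl7a1 had 141, 114, 145 and 143 CPM in Chow-fed Maf1Hep-/- livers, against 145, 151, 145 and 153 CPM in Ctrl livers. Mouse 2 was the low value, and 3 of 4 Maf1Hep-/- mice lay below every Ctrl mouse. The log2(FC) of Mettl7a1 was −0.13 (SE 0.088, edgeR adjusted p = 0.997), and an exact two-sided permutation test of its CPM gave p = 0.0571, where the smallest possible p was 0.0286. Without mouse 2 the log2(FC) was −0.049. In this comparison 0.0159% of 12570 genes were called at an adjusted p-value under 0.05.

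On the HF diet the members had log2(FC) of opposite sign, and neither passed the test. Mettl7b had 392, 363, 412 and 351 CPM in HF-fed Maf1Hep-/- livers, against 390, 505, 478, 476 and 379 CPM in HF-fed Ctrl livers. Ctrl mice 1 and 5 lay within the range of the Maf1Hep-/- mice, and the other 3 lay above it. The means were 380 ± 27.4 CPM in Maf1Hep-/- livers and 445 ± 57.2 CPM in Ctrl livers (SD, n = 4 and 5), with a log2(FC) of −0.24 (SE 0.12, edgeR adjusted p = 0.828) and an exact permutation p of 0.0952. Mettl7a1 had 128, 110, 171 and 115 CPM in HF-fed Maf1Hep-/- livers, against 128, 115, 117, 121 and 107 CPM in HF-fed Ctrl livers. Maf1Hep-/- mouse 3 stood above all others. The log2(FC) of Mettl7a1 was 0.15 (SE 0.14, edgeR adjusted p = 0.927), and without that mouse it was −0.016. In this comparison 0.0162% of 12378 genes, or 2, were called, which became 45 with the replicate number as a block, where Mettl7b was −0.30 (edgeR adjusted p = 0.307). All 5 erythroid markers were higher in the HF-fed Maf1Hep-/- livers (median log2(FC) 1.49), with summed levels of 58.1 to 151 CPM against 54.9 to 95.2 CPM in Ctrl livers, and their part was not tested.

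**Figure D2:**
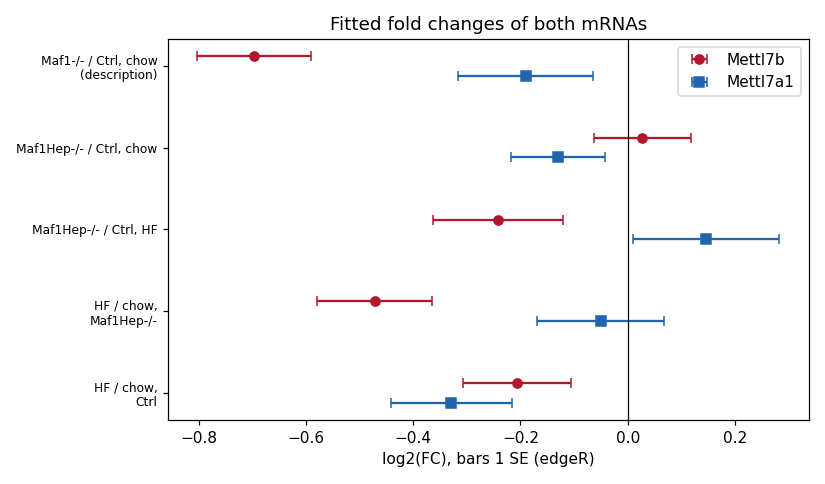
Fitted log2(FC) (x axis, bars of 1 SE) of Mettl7b (red circles) and Mettl7a1 (blue squares) in 5 comparisons, with the first named condition over the second. Mettl7b reaches −0.70 in the whole-body cohort, which is shown as a description, and −0.47 for HF against chow in Maf1Hep-/- livers, while Mettl7a1 is lowest, at −0.33, for HF against chow in Ctrl livers.

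The difference in genotype effect between diets was then tested in one fit of the 17 mice of the hepatocyte-specific cohorts. For Mettl7b the effect on HF minus the effect on chow was −0.26 on the log2 scale (SE 0.15, edgeR adjusted p = 0.998). For Mettl7a1 it was 0.28 (SE 0.16, edgeR adjusted p = 0.998), and it was 0.12 without HF-fed Maf1Hep-/- mouse 3. Of the 12970 genes tested, 0% were called by edgeR, with 599 at an unadjusted p under 0.05, while DESeq2 called 11 and limma-voom with 3 RUVr factors called 9.

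The ratio of the Mettl7b count to the Mettl7a1 count within a library needs no scaling between libraries, so it was compared as a measure of its own. It is a ratio of reads, not of molecules. Its log2 value was 1.62, 1.73, 1.26 and 1.61 in HF-fed Maf1Hep-/- livers, against 1.61, 2.14, 2.03, 1.97 and 1.82 in HF-fed Ctrl livers. All 4 Maf1Hep-/- mice lay below 4 of the 5 Ctrl mice, and Ctrl mouse 1 lay among them. The means were 1.56 ± 0.20 in Maf1Hep-/- livers and 1.92 ± 0.21 in Ctrl livers (SD, n = 4 and 5), a difference of −0.36. The exact permutation test gave p = 0.0397 and an adjusted p-value of 0.0661 over 5 comparisons of the ratio, so it failed the correction. Without HF-fed Maf1Hep-/- mouse 3 the difference was −0.26 with an exact p of 0.0893. The HF mice were also paired by number, a pairing inferred from the data, while the study describes its datasets as unpaired. With these pairs, Maf1Hep-/- minus Ctrl was 0.0064, −0.41, −0.77 and −0.36, so 3 of 4 pairs were lower and pair 1 was not. Their mean was −0.38 with an exact paired permutation p of 0.25, where the smallest possible p was 0.125.

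On chow the ratio leaned the other way. It was 1.82, 2.13, 1.90 and 1.998 in Chow-fed Maf1Hep-/- livers, against 1.76, 1.70, 1.81 and 1.92 in Ctrl livers. The ranges overlapped, with 2 Maf1Hep-/- mice above every Ctrl mouse, and the difference of 0.16 had an exact permutation p of 0.114 (adjusted p = 0.143). The genotype effect on HF minus that on chow was −0.52. Over all 8820 relabellings of genotype within each diet its exact p was 0.00544, with an adjusted p-value of 0.0272. This test was added after the values had been seen. Relabelling assumes no genotype effect on either diet, so a small p does not by itself show that the 2 effects differ. All 4 HF-fed Maf1Hep-/- mice lay below the mean of their Ctrl mice and all 4 Chow-fed Maf1Hep-/- mice lay above the mean of theirs. Leaving out each mouse in turn gave differences of −0.60 to −0.43, with exact p-values of 0.00204 to 0.0151. With the HF mice paired by number it was −0.55, with an exact p of 0.0161 over 1120 relabellings. In the whole-body cohort the log2 ratio averaged 1.34 ± 0.32 in Maf1-/- livers and 1.85 ± 0.17 in Ctrl livers (SD, n = 5 and 7), which is a description only.

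**Figure D3:**
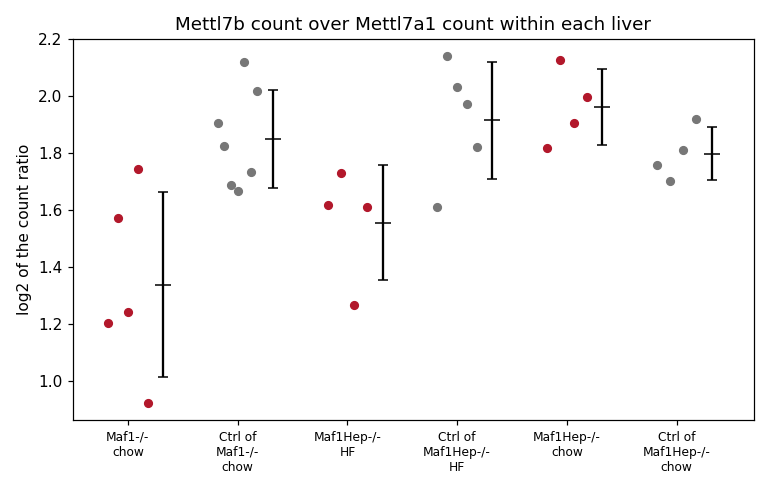
Log2 of the Mettl7b count over the Mettl7a1 count (y axis) in each of 29 livers by group, with red points for Maf1-lacking mice, grey points for Ctrl mice, and bars for the mean and SD. HF-fed Maf1Hep-/- livers average 1.56 against 1.92 in HF-fed Ctrl livers, and Chow-fed Maf1Hep-/- livers average 1.96 against 1.80 in Chow-fed Ctrl livers.

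With TMM scaling, Mettl7b was called lower on the HF diet in Maf1Hep-/- livers and Mettl7a1 was called lower in Ctrl livers, but both calls were lost with library totals, where the direction of Mettl7a1 also turned. In Maf1Hep-/- livers, Mettl7b had a mean of 380 ± 27.4 CPM on HF and 528 ± 35.7 CPM on chow (SD, n = 4 each), and every HF-fed mouse lay below every Chow-fed mouse. Its log2(FC) was −0.47 (SE 0.11, edgeR adjusted p = 0.00175). The exact permutation p was 0.0286, the smallest that 4 against 4 mice can give. With library totals in place of TMM the log2(FC) was −0.15 and the call was lost (edgeR adjusted p = 0.264). Mettl7a1 averaged 131 ± 28.0 CPM on HF and 136 ± 14.5 CPM on chow in the same genotype, a log2(FC) of −0.051 (SE 0.12, edgeR adjusted p = 0.753), which turned to 0.27 (adjusted p = 0.0446) with library totals and to 0.052 with upper-quartile scaling. It was also positive, at 0.027 and 0.0049, without HF-fed Maf1Hep-/- mouse 2 or mouse 4.

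In Ctrl livers, Mettl7a1 averaged 117 ± 7.55 CPM on HF and 148 ± 3.84 CPM on chow (SD, n = 5 and 4), and the groups did not overlap. The log2(FC) was −0.33 (SE 0.11, edgeR adjusted p = 0.0208) with an exact permutation p of 0.00794, the smallest possible, but it was 0.065 (adjusted p = 0.604) with library totals and −0.23 (adjusted p = 0.0902) with upper-quartile scaling. Mettl7b averaged 445 ± 57.2 CPM on HF and 517 ± 41.5 CPM on chow, a log2(FC) of −0.21 (SE 0.10, edgeR adjusted p = 0.0942), which was 0.18 (adjusted p = 0.136) with library totals. As background, 21.8% of 12970 genes were called higher and 25.1% lower on HF in Maf1Hep-/- livers, and 25.3% higher and 28.3% lower in Ctrl livers. With library totals these shares became 49.3% higher and 14.8% lower in Maf1Hep-/- livers, and 55.3% higher and 15.4% lower in Ctrl livers. The scalings also moved the median of all genes. The median log2(FC) in Maf1Hep-/- livers was 0.022 with TMM, 0.12 with upper quartiles and 0.35 with library totals, and in Ctrl livers it was 0.010, 0.11 and 0.41. Diet and sequencing cannot be told apart, since all HF libraries and no chow libraries came from the 150-cycle lanes. The form of the counts, whole on HF and fractional on chow, followed the same split. Of 10 Kupffer cell and macrophage markers, 5 were called higher on HF in Maf1Hep-/- livers and 6 in Ctrl livers, where 1 was called lower. Their summed levels were 304 to 628 CPM against 225 to 324 CPM on chow in Maf1Hep-/- livers and at 336 to 485 CPM against 213 to 284 CPM on chow in Ctrl livers. Erythroid markers had median log2(FC) of −2.61 in Maf1Hep-/- livers and −3.88 in Ctrl livers, with 4 of 5 lower and 1 higher in each. Their summed levels differed far less, with medians of 100 CPM on HF and 115 CPM on chow in Maf1Hep-/- livers. In Ctrl livers these medians were 66.9 CPM on HF and 93.1 CPM on chow. Hepatocyte markers had median log2(FC) of −0.0048 in Maf1Hep-/- livers and −0.45 in Ctrl livers. The part of these cell markers in the members' levels was not tested.

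**Figure D4:**
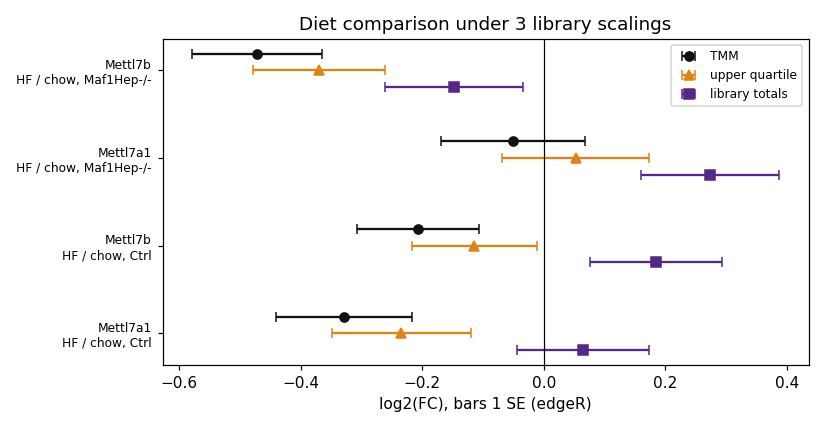
Log2(FC) of HF over chow (x axis, bars of 1 SE) for each member in Maf1Hep-/- and Ctrl livers, with TMM factors (black circles), upper-quartile factors (orange triangles) and library totals (purple squares). Mettl7b in Maf1Hep-/- livers stays below 0 at −0.47, −0.37 and −0.15, while Mettl7a1 in Ctrl livers runs from −0.33 with TMM to 0.065 with library totals.

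The log2 ratio of the members is free of this scaling, but sequencing and the form of the counts still differed with diet. In Maf1Hep-/- livers it was lower on HF, at 1.56 ± 0.20 on HF and 1.96 ± 0.13 on chow (SD, n = 4 each). Every HF-fed mouse lay below every Chow-fed mouse, a difference of −0.41 with an exact permutation p of 0.0286 (adjusted p = 0.0661). The p was 0.0571 without HF-fed mouse 3, Chow-fed mouse 2 or Chow-fed mouse 4. In Ctrl livers the ratio averaged 1.92 ± 0.21 on HF and 1.80 ± 0.094 on chow (SD, n = 5 and 4), a difference of 0.12 (exact permutation p = 0.317). The 2 diet effects were not set against each other apart from the test of genotype by diet given above, which is the same contrast.

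The genes around these enzymes were read from 5 lists, which were chosen with earlier results of these data known. They cover other Mettl genes, other small-molecule methyltransferases, the methionine and S-adenosylmethionine cycle that supplies the methyl donor, thiol and sulfide metabolism, and proteins that reach lipid droplets from the endoplasmic reticulum. By genotype, none of these lists held a called gene in the hepatocyte-specific cohorts. On chow the smallest p-values belonged to G0s2, an inhibitor of the lipase ATGL (log2(FC) 0.64), and Gsr, glutathione reductase (log2(FC) −0.16), each with an edgeR adjusted p of 0.997. On HF, Plin4, a perilipin of lipid droplets, had a log2(FC) of 1.92 (edgeR adjusted p = 0.0784) and G0s2 had 1.03 (adjusted p = 0.667). Gnmt, which uses S-adenosylmethionine to methylate glycine, had 0.68 (edgeR adjusted p = 0.663). Hnmt, which methylates histamine, had 0.67 (edgeR adjusted p = 0.745), and Sardh, sarcosine dehydrogenase, had 0.36 (adjusted p = 0.803).

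In the whole-body cohort the lists are a description. Proteins of the endoplasmic reticulum and lipid droplets had a median log2(FC) of −0.30 over 27 genes, against 0.0030 over all 12796 genes tested. Thiol and sulfide genes had a median of −0.15 over 21 genes, with 14 lower and 7 higher. Other Mettl genes had a median of 0.076 over 20.

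By diet, called genes were frequent in all lists, as in the whole table, where 25.1% were lower and 21.8% higher in Maf1Hep-/- livers and 28.3% lower and 25.3% higher in Ctrl livers with TMM. The counts of every list followed the shift of the whole table when library totals were used. For these genes too, diet cannot be told apart from sequencing or from the form of the counts. Library totals check the scaling alone. In Maf1Hep-/- livers 7 of 21 thiol and sulfide genes were called lower on HF and 1 higher, with a median log2(FC) of −0.19 against 0.022 for all genes. In Ctrl livers 10 were called lower and 1 higher, with a median of −0.33 against 0.010. With library totals those medians turned positive, at 0.14 in Maf1Hep-/- livers and 0.074 in Ctrl livers, against 0.35 and 0.41 for all genes, and the counts became 3 lower and 6 higher in Maf1Hep-/- livers and 4 lower and 4 higher in Ctrl livers. Ethe1, a persulfide dioxygenase of mitochondrial sulfide oxidation, fell under both scalings. Its log2(FC) was −1.02 (SE 0.19) in Maf1Hep-/- livers and −1.45 (SE 0.18) in Ctrl livers with TMM, and −0.70 and −1.06 with library totals. Mpst, which forms persulfide from mercaptopyruvate, fell likewise. With TMM it fell by 0.75 on the log2 scale (SE 0.19) in Maf1Hep-/- livers and by 1.18 (SE 0.18) in Ctrl livers. Csad, an enzyme of taurine synthesis, had −0.97 in Maf1Hep-/- livers and −1.01 in Ctrl livers with TMM but was not called with library totals.

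Of the 27 endoplasmic reticulum and lipid droplet genes, 9 were called lower and 3 higher in Maf1Hep-/- livers, and 11 lower and 3 higher in Ctrl livers, which became 2 lower and 11 higher, and 4 lower and 10 higher, with library totals, close to or below the shares of the whole table under that scaling. With TMM the shares were 33.3% lower and 11.1% higher in Maf1Hep-/- livers, beside 25.1% and 21.8% of all genes. In Ctrl livers they were 40.7% and 11.1%, beside 28.3% and 25.3% of all genes. Nsdhl and Hsd17b7, enzymes of cholesterol synthesis, and Acsl3, an acyl-CoA synthetase of growing droplets, were among the lower ones. Their log2(FC) was −1.25, −1.16 and −0.92 in Maf1Hep-/- livers and −1.27, −1.08 and −1.38 in Ctrl livers with TMM. With library totals Nsdhl was called in neither genotype and Acsl3 only in Ctrl livers. Plin4 rose in Maf1Hep-/- livers (log2(FC) 1.51, SE 0.33, edgeR adjusted p = 0.00138) and was at −0.14 in Ctrl livers (adjusted p = 0.731).

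In the methionine and S-adenosylmethionine cycle, 5 of 20 genes were called higher and 5 lower in Maf1Hep-/- livers, and 5 higher and 8 lower in Ctrl livers. In Maf1Hep-/- livers that is 25% higher and 25% lower, beside 21.8% and 25.1% of all genes. In Ctrl livers it is 25% and 40%, beside 25.3% and 28.3% of all genes. With library totals the counts were 11 higher and 2 lower in Maf1Hep-/- livers, and 10 higher and 4 lower in Ctrl livers. Ahcy, which clears the S-adenosylhomocysteine left by methylation, fell by 2.63 (SE 0.16) in Maf1Hep-/- livers and fell by 3.0 (SE 0.15) in Ctrl livers. Mtr, methionine synthase, had a log2(FC) of 1.27 and 1.51, and Amd1, which commits S-adenosylmethionine to polyamines, had −1.67 and −1.47, in Maf1Hep-/- and Ctrl livers in that order. These 3 genes kept direction and call with library totals, which checks scaling but not sequencing. Among other small-molecule methyltransferases, 2 of 16 were called higher and 2 lower in Maf1Hep-/- livers and 1 higher and 4 lower in Ctrl livers. These shares, 12.5% and 12.5%, and 6.25% and 25%, were all below those of all genes. The counts became 6 higher and 1 lower, and 7 higher and 3 lower, with library totals. Carnmt1, which methylates carnosine, fell by 2.57 in Maf1Hep-/- livers and fell by 2.46 in Ctrl livers, and Gnmt was at −0.52 in Maf1Hep-/- livers (edgeR adjusted p = 0.0676) and fell by 1.39 in Ctrl livers. Of 20 other Mettl genes, 5 were called higher and 2 lower in Maf1Hep-/- livers, and 4 higher and 3 lower in Ctrl livers, with Mettl6, a tRNA methyltransferase, at 0.66 and 0.64. That is 25% higher and 10% lower in Maf1Hep-/- livers, beside 21.8% and 25.1% of all genes. In Ctrl livers it is 20% and 15%, beside 25.3% and 28.3% of all genes. With library totals no Mettl gene of that list was called lower, while 10 in Maf1Hep-/- livers and 13 in Ctrl livers were called higher, beside 49.3% and 55.3% of all genes.

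From mouse to mouse the members were only loosely tied. After the group means were subtracted, log2 CPM of Mettl7a1 and Mettl7b had a Pearson r of 0.32 (permutation p = 0.118, adjusted p = 0.28 over 4 relations) and a Spearman rho of 0.24 (permutation p = 0.252) over 29 mice. Within cohorts r was 0.26 over 12 mice of the whole-body cohort, 0.38 over 9 mice of the HF cohort and 0.47 over 8 mice of the hepatocyte-specific chow cohort, with permutation p-values of 0.451, 0.197 and 0.21. The matching Spearman rho was 0.11, 0.35 and 0.40, with permutation p-values of 0.740, 0.321 and 0.436. Without the 2 mice farthest from the median of Mettl7b, r over the remaining 27 mice was 0.15. Leaving out such a pair within each cohort gave −0.15, 0.59 and 0.45.

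**Figure D5:**
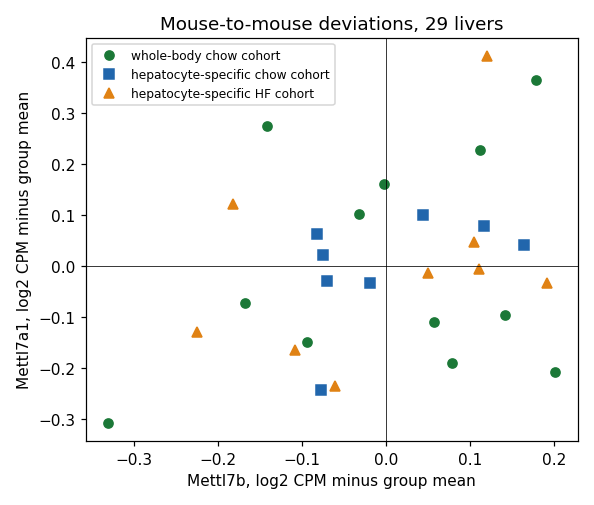
Deviation of Mettl7a1 (y axis) against that of Mettl7b (x axis) from their group means, in log2 CPM, for 29 livers, with green circles for the whole-body cohort, orange triangles for the HF cohort and blue squares for the hepatocyte-specific chow cohort. The points scatter loosely (r = 0.32), and whole-body Ctrl mouse 2, at the lower left, is low for both genes.

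The genes most like each member were ranked by the lowest of the 3 within-cohort correlations, over 12, 8 and 9 mice, among 9239 other genes with a mean of at least 5 CPM. These are descriptions, and all genes of a mouse come from the same library, so its depth and composition enter every correlation. For Mettl7b the closest were Tmub2 (0.71), Plod1 (0.70), Tmem109 (0.70), Pigq (0.69) and Mettl17 (0.69). Plod1, a lysyl hydroxylase of collagen, followed it at r = 0.96 in the HF cohort, 0.75 in the hepatocyte-specific chow cohort and 0.70 in the whole-body cohort. Ptbp2, a splicing regulator, was at −0.77 or lower in all 3 cohorts and led the opposite end of this ranking, followed by Mtdh (−0.76) and Papolg, a poly(A) polymerase (−0.72). For Mettl7a1 the closest included Zkscan5 (0.70), Prnp (0.68), Glrx5, a mitochondrial glutaredoxin (0.64), and Saraf (0.62). The most opposite were Dph6 (−0.67), Esr1, oestrogen receptor alpha (−0.64), and Phykpl (−0.64). Neither member was among the genes closest to the other. Their lowest within-cohort r was 0.26, which put Mettl7b at rank 525 of 9239 in the list of Mettl7a1 and Mettl7a1 at rank 696 in the list of Mettl7b. The first principal component was computed per cohort and turned so that Maf1-lacking mice had the higher mean. Its signs therefore cannot be compared between cohorts. It ran with Mettl7b at r = −0.64 in the whole-body cohort, 0.46 in the HF cohort and 0.57 in the hepatocyte-specific chow cohort. With Mettl7a1 it ran at −0.51, 0.74 and 0.17.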

How the data were processed

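Liver RNA of 29 mice was sequenced with 1 library per mouse, and the groups were taken from GEO's genotype and diet labels and the sample titles. Per the labels and the study's methods, the authors trimmed reads, aligned them to mm10 and made the deposited expected counts per gene with RSEM, with no normalization. They used edgeR 3.32.1 and limma for their own tests. All columns matched a sample. The members and gene lists were chosen with earlier results of these data known.

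Expected counts were rounded to whole numbers. A gene entered a fit if any of its mice reached 1 CPM, TMM factors were computed, and edgeR (4.0.16, R 4.3.3) quasi-likelihood tests run with Benjamini-Hochberg adjustment over all genes, with calls at an adjusted p-value under 0.05. The 3 cohorts were fitted separately, and diet and genotype by diet in one fit of the 17 mice of the hepatocyte-specific cohorts. SE was derived from log2(FC) and the F statistic (size of log2(FC) over the root of F). Exact two-sided permutation tests were run on CPM and on the log2 count ratio (Python 3.11.15), and 100000 permutations within groups on correlations of log2 CPM with a prior count of 2. Transcripts and positions came from GENCODE vM21. The fits were tested on simulated data. Alternatives were RLE factors, library totals, other filters, DESeq2 (1.42.0), limma-voom (3.58.1) with RUVr factors computed here, a replicate block, all 29 mice in one fit, and leaving out each mouse. Upper-quartile scaling, the fit without mouse 2 of both whole-body groups, the genotype by diet test of the ratio and the paired tests of the ratio were added after seeing the data.

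Same-numbered Maf1Hep-/- and Ctrl mice of the HF cohort deviated together, with correlations of 0.41, 0.12, 0.27 and 0.27, all over 0.1, so the numbers were taken to pair them from the data. The study's methods describe its datasets as unpaired, and 2 of the 4 mice correlated better with another number. In the whole-body and hepatocyte-specific chow cohorts the correlations ran from −0.57 to 0.34 and from −0.34 to 0.25. Named genes were the members, the targeted gene, up to 4 called genes per list and comparison by absolute log2(FC) or the 2 with the smallest p where none was called, and the 5 most and 3 least like genes of each member. A gene that this rule names is not reported here. No 2 libraries of a group agreed within sampling noise. The depth bears on precision only little here, since each member had at least 3511 reads in every library.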

Additional observations from a re-analysis of the deposited data

Results flagged for a closer look

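Mettl7a1 in the Chow-fed Maf1Hep-/- group had 1 mouse far from the others, mouse 2 at 114 CPM, with a gap to the nearest mouse of 0.879 of the group's whole range. Of 18 such checks over both members and their ratio this was the only one to stand out, and chance gives about 1 in 20.

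The log2 ratio of the Mettl7b count to the Mettl7a1 count had genotype differences of opposite sign on the 2 diets. Taken singly, neither difference passed, with adjusted exact permutation p-values of 0.0661 on HF and 0.143 on chow. The ranges of the genotypes overlapped on both diets. The effect of Maf1Hep-/- on HF minus that on chow was −0.52 (exact permutation p = 0.00544, adjusted p = 0.0272). That test was added after the values had been seen, and its relabelling assumes no genotype effect on either diet. All 4 HF-fed Maf1Hep-/- mice lay below the mean of their Ctrl mice and all 4 Chow-fed ones above theirs. Neither member alone passed the genotype by diet test, with edgeR adjusted p-values of 0.998 for each.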

How the results depend on the processing

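The diet comparisons depended on library scaling. With library totals, HF against chow for Mettl7a1 reversed to 0.27 in Maf1Hep-/- livers and 0.065 in Ctrl livers, Mettl7b reversed to 0.18 in Ctrl livers, and Mettl7b in Maf1Hep-/- livers was −0.15 and no longer called. With upper-quartile scaling, chosen after seeing the data, Mettl7a1 reversed to 0.052 in Maf1Hep-/- livers and was −0.23, no longer called, in Ctrl livers. With limma-voom and 1 or 3 RUVr factors Mettl7b in Ctrl livers was −0.21 with each, and was called (adjusted p = 0.0459 and 0.0374). TMM factors over the 29 libraries were 1.19 to 1.27 in the HF cohort and 0.838 to 1.01 in the chow cohorts. These shift every gene of a diet comparison in the same direction. The 50 most abundant genes of a library held 38.36 to 46.97% of its counts in the chow cohorts and 33.38 to 36.96% in the HF cohort. The cause of the difference in factors was not tested. With medians in place of means, the log2 ratio was −0.36 for Maf1Hep-/- against Ctrl on HF (exact permutation p = 0.0873) and −0.34 for HF against chow in Maf1Hep-/- livers (exact permutation p = 0.0571), so both then missed the 0.05 threshold. Leaving out each mouse in turn gave −0.44 to −0.26 and −0.46 to −0.31 for these ratios. It gave −0.21 to 0.027 for Mettl7a1 by diet in Maf1Hep-/- livers, −0.016 to 0.23 for Mettl7a1 by genotype on HF, and −0.0074 to 0.086 for Mettl7b by genotype on chow, with no change of call. The exact p of the genotype ratio on HF was 0.0286 to 0.0893 there, and only leaving out Ctrl mouse 1 kept it under 0.05.

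With the replicate block, Mettl7b was −0.30 (SE 0.11, edgeR adjusted p = 0.307) and Mettl7a1 0.085 in HF-fed Maf1Hep-/- against Ctrl livers, −0.67 and −0.17 in the whole-body cohort, and 0.028 and −0.14 on chow. With HF mice paired by number, an alternative added after seeing the data, the genotype ratio on HF was −0.38 (exact permutation p = 0.25, smallest possible 0.125). The block changed no member's call, while the genes called by genotype on HF went to 45, against 2 without it. That count was 56 with DESeq2, 175 with limma-voom and 3 RUVr factors, 4 in the fit of all 29 mice, and 2 to 13 when a mouse was left out (13 without Maf1Hep-/- mouse 2, 9 without Ctrl mouse 5, 5 without Maf1Hep-/- mouse 1, 4 without Maf1Hep-/- mouse 3). On chow it was 5 with 3 RUVr factors, against 2, and genotype by diet called 11 with DESeq2, 9 with 3 RUVr factors and 1 without HF-fed Ctrl mouse 5, against 0. How reads shared between Mettl7a1 and its neighbours bear on its level was not tested. No other result of the members changed direction or call under the alternatives run.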
